A study of Arabidopsis thaliana with 38 samples.

Results

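The 5 probe sets described here stand for heat-induced chaperone genes of *Arabidopsis thaliana* and a factor that switches them on: *HSP101* (260248_at, AT1G74310), *HSFA2* (266841_at, AT2G26150), *HSP70* (256245_at, AT3G12580), *HSP17.4* (252515_at, AT3G46230) and AT5G51440 (248434_at), a small heat shock protein of the mitochondrion. They were chosen by gene, as a set of heat-response markers, from the 22746 probe sets of the ATH-1 array other than array controls. Earlier results of these data were known at that choice. The probe table used here names AT5G51440 for its probe set, whereas the genes of the other 4 probe sets were taken as given and could not be checked in it. They were followed across 13 lines, each set against the control plants of its own experiment.

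The values came from 37 arrays of 35 biological samples, each a pool of 10 seedlings aged 14 days from which only the aerial tissue was taken. All lines carry the Col-0 accession's background. The HSP90-RNAi lines express a hairpin of *HSP90* coding sequence, with a GFP spacer, from the cauliflower mosaic virus 35S promoter. RNAi-A1, RNAi-A2 and RNAi-A3 are different transformed lines of 1 fragment of *HSP90.1*, RNAi-B1 carries another fragment of *HSP90.1*, and RNAi-C1 carries a fragment of *HSP90.2*. Control-1, Control-2 and Control-3 are lines with the GFP construct and no *HSP90* sequence. The 3 HSP90-TDNA lines (HSP90.1-TDNA, HSP90.3-TDNA and HSP90.2-TDNA) are homozygous for an insertion in the gene of their name, *hsp90.2-3* has a point mutation in *HSP90.2*, and Col-0 (stock CS60000) is untransformed. The RNAi and vector lines were made in a laboratory stock of Col-0, which these arrays do not include. The GFP construct and the RNAi-A fragment are each known from 3 lines, and every other construct or allele from 1. No heat treatment is named for the array samples.

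The seedlings were grown in 3 experiments. RNAi-A1 and RNAi-A3 were grown with Control-2 (2 samples per line). RNAi-A2 (2 samples), RNAi-B1 and RNAi-C1 (3 each) were grown with Control-1 and Control-3 (3 each). The HSP90-TDNA lines were grown with Col-0 (3 samples per line). The experiment of *hsp90.2-3* (3 samples) is not named, so that its mutation and its experiment cannot be told apart in the comparison with Col-0. The labels do not say whether the samples of a line were grown separately, and the p-values measure only the spread between them.

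In plants as in animals, HSP90 is a chaperone that matures signalling proteins and also holds heat shock transcription factors in check. When unfolded proteins accumulate, HSF factors of the A class bind heat shock elements before chaperone genes, and HSFA2, itself strongly induced by heat, prolongs that response. HSP101 is the ClpB-type disaggregase that pulls proteins out of aggregates and is needed for acquired thermotolerance. It works with HSP70 chaperones, which bind exposed hydrophobic stretches, and with small heat shock proteins, which keep unfolding proteins in a soluble state.

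Array medians of the 37 arrays ranged from 171 to 221, and their correlation with the median profile from 0.975 to 0.987. An array of RNAi-A3, the first technical replicate of replicate 2, correlated at 0.499 and was left out, so that this sample rests on a single array. The leaf marker *RCA*, which encodes Rubisco activase, had signals of 15798 to 24497 in every sample. The root-linked *PYK10*, a beta-glucosidase, had 2021 to 4814, and *EXPA7*, an expansin of root hairs, 5.98 to 139. The other leaf and root markers and the targeted cytosolic *HSP90* genes have no named probe set here, so the reduction of *HSP90* RNA was not checked. In whole aerial tissue, fewer cells of a type and less RNA per cell cannot be told apart.

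Signals are MAS5 values on a linear scale, in which the trimmed mean of an array is about 500. Of the 5 probe sets, *HSP101*, *HSP70* and AT5G51440 had at least 1 line mean above a signal of 90.34, the 35th percentile of all values, and were among the 16798 probe sets tested. The line means of *HSP101* exceeded that signal in 2 lines, RNAi-A1 and Control-2, and those of *HSP70* and AT5G51440 in all 13 lines. *HSFA2* and *HSP17.4*, with highest line means of 88.1 and 81.9, did not pass, and their p-values come from a fit of all 22746 probe sets. Changes are differences of log2(signal + 16), which understates the change of dim probe sets, with the standard error (SE) and the p-value from limma adjusted over all probe sets tested. A probe set was called at an adjusted p under 0.05. Statements that the samples of groups do or do not overlap are descriptions. The share of all probe sets that separate in the same way was not counted.

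The levels of *HSP70*, AT5G51440 and *HSFA2* differed between experiments, control lines included. In the experiment of Control-2 the *HSP70* signal was 516 to 876 in the 6 samples (median 689), and in that of Control-1 and Control-3 it was 190 to 303 in the 14 samples (median 235), with no overlap. AT5G51440 was at 300 to 484 (median 338) against 97.2 to 204 (median 138), again without overlap. *HSFA2* was at 25.5 to 123 (median 67.6) against 4.37 to 35.1 (median 6.58), and *HSP101* at 23.3 to 167 (median 122) against 13.4 to 83.5 (median 53.8), where the ranges overlapped. *HSP17.4* had 41.9 to 99.7 and 18.3 to 105, and overlapped almost entirely.

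**Figure D1:**
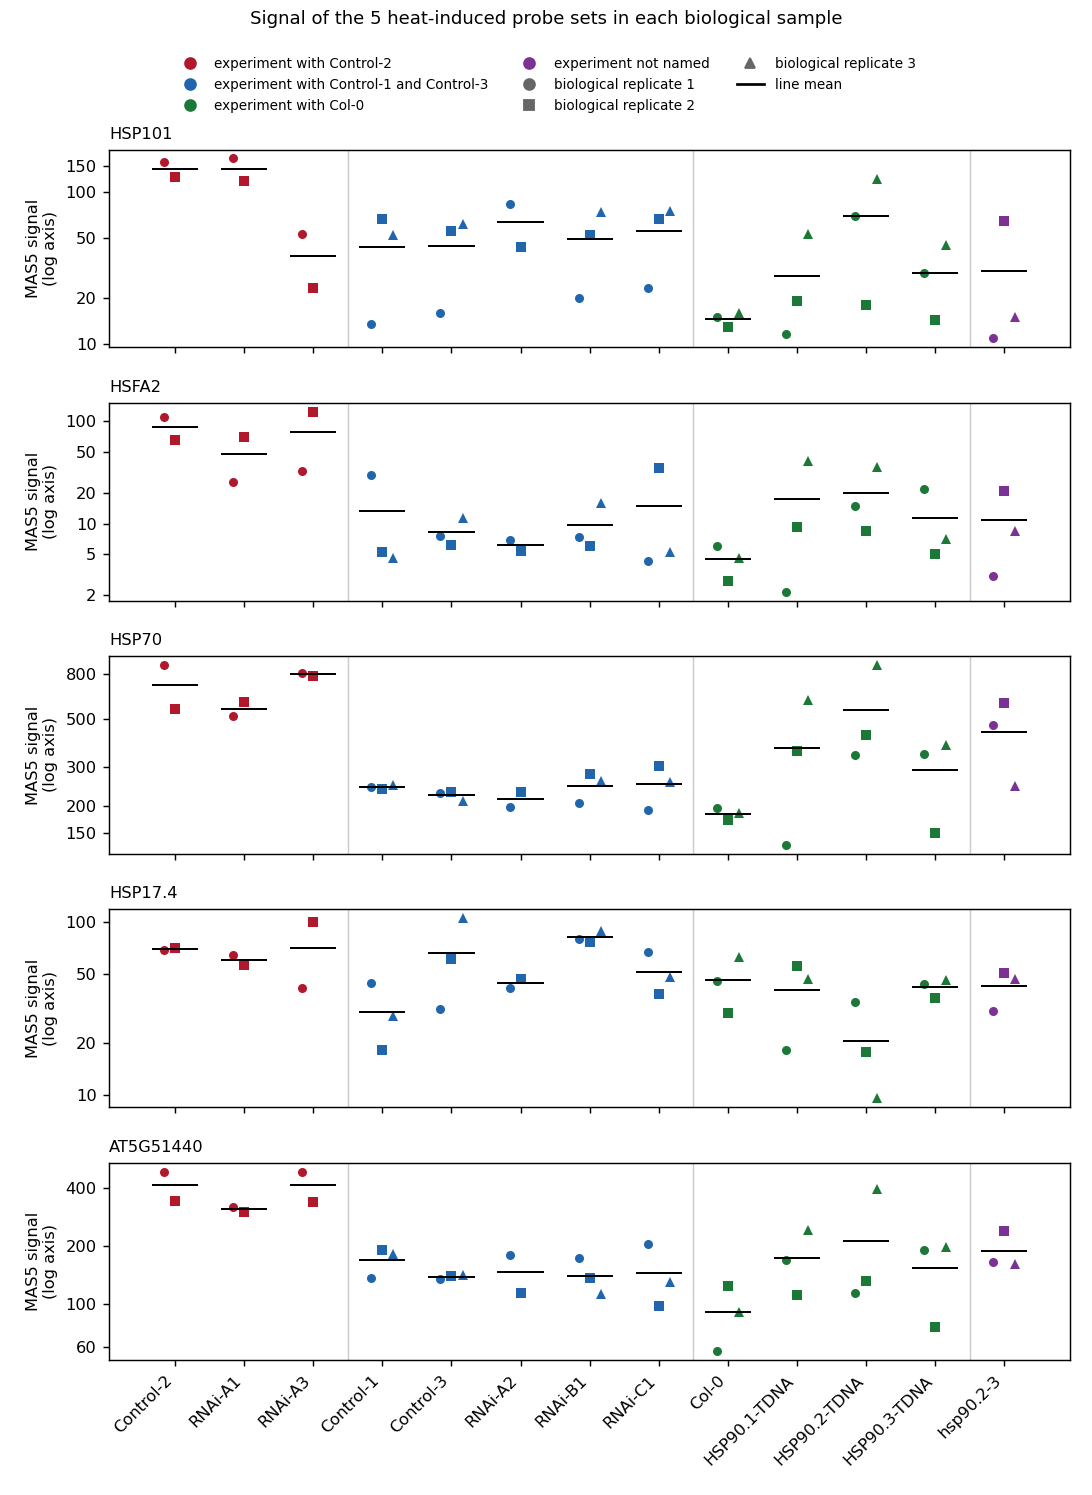
MAS5 signal (log axis) of each of the 5 probe sets in the 35 biological samples, by line, coloured by experiment, with the replicate number as the symbol and the line mean as a black bar. The 6 samples grown with Control-2 lie above the 14 grown with Control-1 and Control-3 for *HSP70* and AT5G51440. For *HSP101*, *HSFA2* and *HSP70* the samples of each HSP90-TDNA line spread more widely than those of Col-0, which for *HSP17.4* did not hold in HSP90.3-TDNA.

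The control lines alone showed the same step. *HSP70* was at 876 and 553 in Control-2, at 243, 239 and 250 in Control-1, and at 228, 230 and 210 in Control-3. AT5G51440 was at 484 and 339 in Control-2, 136, 190 and 181 in Control-1, and 135, 140 and 140 in Control-3. Every Control-2 sample was above all 6 other vector controls for both genes, and also for *HSP101* and *HSFA2*. How many other probe sets separate in this way was not counted. Control-2 against the average of the other 2 vector controls gave a log2 change of 1.52 (SE 0.38, adjusted p = 0.0042) for *HSP70*, 1.30 (SE 0.36, adjusted p = 0.0086) for AT5G51440 and 1.499 (SE 0.51, adjusted p = 0.0268) for *HSP101*. *HSP101* passed the filter only through lines of the experiment of Control-2, and its call is no support for the difference. It was lost with quantile normalization (log2 change 1.15, adjusted p = 0.122). Without replicate 1 of Control-2 no member was called, with adjusted p of 0.0999 for *HSP70* and 0.137 for AT5G51440. By a Welch t-test neither *HSP70* nor AT5G51440 was called, and *HSP101* was.

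This comparison was added after the values were seen, and 34.8% of all tested probe sets were called in it, so that a difference between Control-2 and the other vector controls was common on the array. The median change of all tested probe sets was 0.14 and became 0.02 after quantile normalization. *HSFA2* gave 1.98 (SE 0.44) with an adjusted p of 0.0022 in the fit without a filter, which called 25.5% of its 22746 probe sets. *HSP17.4*, at 69.1 and 70.6 in Control-2 against 18.3 to 105, gave 0.53 (SE 0.32, adjusted p = 0.219). Whether growth, harvest, array processing or the transformed line set the step cannot be told apart, since Control-2 is the only control in its experiment.

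Col-0 had the lowest line mean of all 13 lines for *HSP101*, *HSFA2*, *HSP70* and AT5G51440. Against Control-1 and Control-3, another comparison across experiments added after the values were seen, AT5G51440 gave -0.71 (SE 0.31, adjusted p = 0.0761) and *HSP101* -0.86 (SE 0.44, adjusted p = 0.128). None of the 3 tested members was called, where 39.1% of all tested probe sets were. Between Control-3 and Control-1, which shared an experiment, again none was called and 0.0417% of the array was. *HSP17.4* was at 31.7, 61.1 and 105 in Control-3 and at 44.2, 18.3 and 28.7 in Control-1, a change of 0.76 (SE 0.32, adjusted p = 0.673).

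HSP101, the disaggregase, varied most among samples of 1 line. Its residual SD of 0.67 on the log2 scale was larger than that of 98.8% of the tested probe sets, and the SDs of the other 4 members were larger than that of 89.7% to 97.0% of them. The *HSP101* signal was 13.4, 66.2 and 51.9 in Control-1 and 15.9, 55.3 and 61.7 in Control-3, with the low value in replicate 1 of each. RNAi-B1 had 20.2, 52.3 and 74.6 and RNAi-C1 23.2, 67.1 and 75.4, with the same replicate low. RNAi-A2 went the other way, with 83.5 in replicate 1 and 43.5 in replicate 2. *HSP70* was also lowest in replicate 1 of RNAi-B1 (205) and RNAi-C1 (190), and of RNAi-A2 (196 against 231). In Control-1 and Control-3 its lowest sample was another replicate, and the Control-1 samples spanned only 239 to 250.

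In the HSP90-RNAi lines of that experiment *HSP101* did not differ beyond this spread. The log2 changes were 0.47 for RNAi-A2, 0.27 for RNAi-C1 and 0.13 for RNAi-B1, with SEs of 0.44 to 0.51 and adjusted p of 0.742 or more. In the experiment of Control-2, *HSP101* was at 167 and 119 in RNAi-A1, at 53.0 and 23.3 in RNAi-A3, and at 159 and 126 in Control-2. Both samples of RNAi-A3 were below both of Control-2, with a change of -1.59 (SE 0.63, unadjusted p = 0.0182, adjusted p = 0.777). *HSP101* passed the filter only through RNAi-A1 and Control-2, so this p-value is no support for a lower level. RNAi-A1 overlapped with Control-2 at -0.01 (SE 0.63). The lower *HSP101* of RNAi-A3 was not accompanied by lower *HSP70*, which was at 807 and 786 there.

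*HSP70* and AT5G51440 were near their controls in all 5 HSP90-RNAi lines. *HSP70* changes ran from -0.33 in RNAi-A1 to 0.19 in RNAi-A3, with a mean over the lines of -0.02 (SE 0.22, 95% interval -0.48 to 0.44). *HSP70* was at 205, 278 and 259 in RNAi-B1, at 190, 303 and 256 in RNAi-C1, and at 196 and 231 in RNAi-A2, and each of these lines overlapped with the 6 control samples at 210 to 250. AT5G51440 changes ran from -0.35 to 0.02, with a mean of -0.13 (SE 0.21, 95% interval -0.57 to 0.30). The intervals of these means leave out a 1.5-fold rise, which is 0.58 on the log2 scale, but those of single lines were wider. That of *HSP70* reached 0.64 to 1.16 in each of the 5 lines, and that of AT5G51440 reached 0.67 in RNAi-A2 and 0.94 in RNAi-A3, so that such a rise was not left out there.

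*HSFA2*, the heat shock factor, was dim in the experiment of Control-1 and Control-3 and had single high samples. These were replicate 2 of RNAi-C1 at 35.1, where the other samples of that line had 4.37 and 5.23, and replicate 1 of Control-1 at 29.6, beside 5.27 and 4.60. In RNAi-A1 it was at 25.5 and 69.7 and in RNAi-A3 at 32.4 and 123, against 111 and 65.5 in Control-2. Its changes in the 5 lines ran from -0.76 to 0.13, with adjusted p of 0.876 or more. The small heat shock protein *HSP17.4* of the cytosol was at 80.0, 77.2 and 88.4 in RNAi-B1, the tightest line for this probe set among those of its experiment with 3 samples, and within the 18.3 to 105 of the controls, at a change of 0.73 (SE 0.27, unadjusted p = 0.0131, adjusted p = 0.310).

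None of the 3 tested members was called in an HSP90-RNAi line. The share of the array called was 8.2% in RNAi-C1, 1.01% in RNAi-B1, 0.917% in RNAi-A2, 0.0119% in RNAi-A3 and 0.00595% in RNAi-A1, and it was 0.685% for the mean of the 5 lines. Even in RNAi-C1, the line with the most called probe sets among the 5, a share of 8.2% would mostly leave 3 genes uncalled. Over all 9 HSP90-reduced lines, an unadjusted limma p under 0.05 was reached in 2 lines by *HSP101*, in 2 by *HSP70* and in 3 by AT5G51440. Those of *HSP101* include RNAi-A3, compared with a control through which the probe set passed the filter. Such a p was reached by 4.27% to 25.5% of the tested probe sets per line. The t-test that the methods name for experiments without technical replicates gave such a p for 0 of the 21 pairs of these genes with the 7 lines outside the experiment of Control-2.

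In the insertion lines the same genes were higher in most samples than in Col-0, but with a wide spread. *HSP70* was at 194, 172 and 186 in the samples of Col-0. It was at 132, 356 and 609 in HSP90.1-TDNA, at 342, 420 and 878 in HSP90.2-TDNA, and at 344, 150 and 378 in HSP90.3-TDNA. All samples of HSP90.2-TDNA were above all of Col-0, whereas 1 sample each of HSP90.1-TDNA and HSP90.3-TDNA was below the lowest Col-0 sample. The share of the array that separates in this way was not counted, here or for *HSP101* and *HSFA2* below. The SD of the log2 values was 0.69 to 1.05 in the HSP90-TDNA lines and 0.08 in Col-0. The changes were 1.38 (SE 0.38, unadjusted p = 0.0014, adjusted p = 0.408) in HSP90.2-TDNA, 0.70 (SE 0.38, adjusted p = 0.730) in HSP90.1-TDNA and 0.52 (SE 0.38, adjusted p = 0.760) in HSP90.3-TDNA.

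AT5G51440 had the same order. It was at 56.7, 124 and 91.0 in Col-0, at 168, 111 and 240 in HSP90.1-TDNA, at 114, 132 and 392 in HSP90.2-TDNA, and at 190, 75.7 and 196 in HSP90.3-TDNA. In each of these lines 2 of the 3 samples were above the highest Col-0 sample, and none was below the lowest. The changes were 0.95 in HSP90.2-TDNA, 0.82 in HSP90.1-TDNA and 0.63 in HSP90.3-TDNA (SE 0.36 each), with adjusted p of 0.622, 0.630 and 0.663.

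*HSP101* was at 15.1, 12.96 and 15.9 in Col-0, the tightest group of any line for this gene. It was at 70.3, 18.0 and 122 in HSP90.2-TDNA, all above Col-0, at 11.7, 19.3 and 52.9 in HSP90.1-TDNA, and at 29.3, 14.3 and 44.8 in HSP90.3-TDNA. The changes were 1.27 (SE 0.51, unadjusted p = 0.0203, adjusted p = 0.640), 0.41 and 0.51. These levels lie at the dim end of the array: the Col-0 samples exceeded 11.9% to 12.1% of the probe sets, and the highest HSP90-TDNA sample 40.1%. *HSFA2* was at 6.04, 2.76 and 4.62 in Col-0 and at 15.0, 8.44 and 36.0 in HSP90.2-TDNA, with no overlap, at a change of 0.74 (SE 0.44, adjusted p = 0.858).

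*HSP17.4* had the opposite sign in HSP90.2-TDNA. Its signal was 34.6, 17.78 and 9.61 there and 45.8, 29.9 and 62.7 in Col-0, a change of -0.78 (SE 0.32, unadjusted p = 0.0209, adjusted p = 0.759), and 2 of the 3 samples were below all of Col-0. In HSP90.1-TDNA and HSP90.3-TDNA it was at 18.3 to 56.2 and 36.4 to 46.1, and no sample of an HSP90-TDNA line exceeded the highest Col-0 sample. The sample with the lowest *HSP17.4* of all 35, replicate 3 of HSP90.2-TDNA, had the highest *HSP70* of all 35.

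The highest samples of the HSP90-TDNA lines were mostly replicate 3, while the low ones had no common number. For *HSP101*, *HSP70* and AT5G51440 that replicate was the highest sample in each of the 3 lines, and for *HSFA2* in HSP90.1-TDNA and HSP90.2-TDNA. In Col-0 replicate 3 was the highest for *HSP101* alone of these 4 genes, at 15.9, with *HSP70* at 186 between its other samples. Without replicate 3 of all 3 HSP90-TDNA lines, a setting chosen after the values were seen, the changes in HSP90.2-TDNA were 0.82 for *HSP101*, 0.98 for *HSP70* and 0.43 for AT5G51440. The mean over the 3 lines was then 0.50 for *HSP70* (adjusted p = 0.641) and 0.47 for AT5G51440 (adjusted p = 0.647). Low samples also stood apart, with log2 deviations from the line mean of -1.13 for *HSP70* in replicate 1 of HSP90.1-TDNA and -1.12 for *HSP101* in replicate 2 of HSP90.2-TDNA. Without replicate 1 of HSP90.1-TDNA the mean over the 3 lines was 1.06 for *HSP70* (adjusted p = 0.0969). What set these samples apart was not tested.

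None of the 3 tested members was called in a single HSP90-TDNA line. The share of the array called was 0.0893% for the insertion in *HSP90.3*, 0.0238% for that in *HSP90.1* and 0.00595% for that in *HSP90.2*. The mean of the 3 lines gave 0.87 (SE 0.31, 95% interval 0.22 to 1.51, adjusted p = 0.421) for *HSP70*, 0.80 (SE 0.30, 95% interval 0.19 to 1.41, adjusted p = 0.434) for AT5G51440 and 0.73 (SE 0.42, adjusted p = 0.685) for *HSP101*, with none called and 0.00595% called on the array. These 3 comparisons share the Col-0 samples, so a low draw in Col-0 would raise all of them at once.

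**Figure D2:**
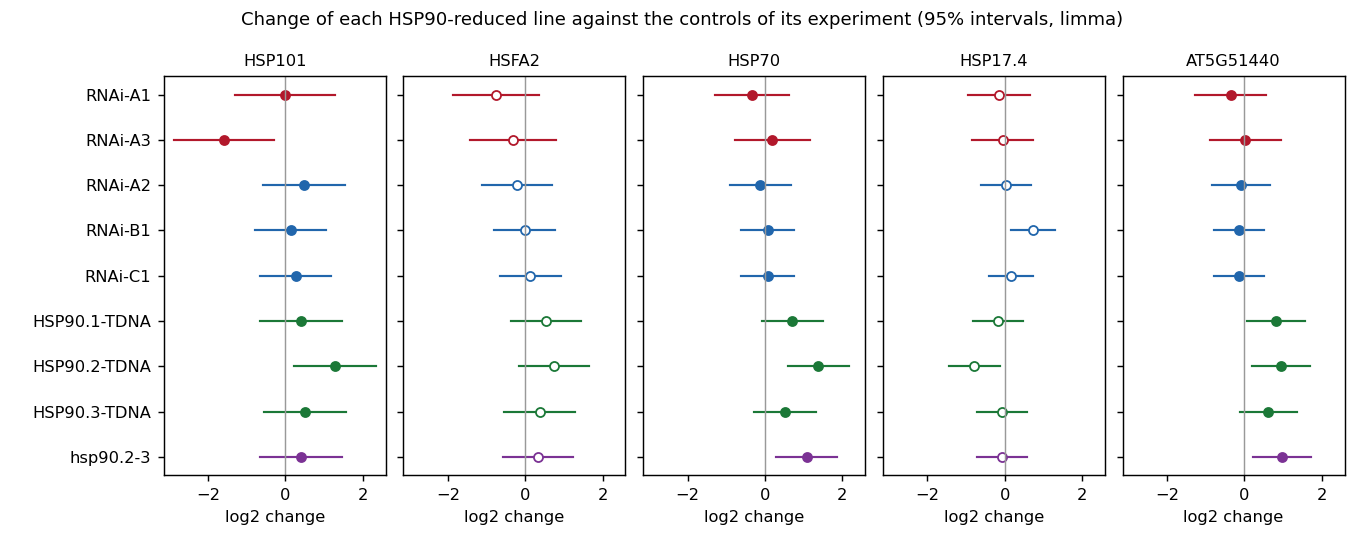
Log2 change of each HSP90-reduced line against the controls of its experiment (x axis), with 95% intervals from limma, for the 5 probe sets, where filled points are probe sets that passed the filter and open points come from the fit without a filter. The 4 lines compared with Col-0 have positive values for *HSP101*, *HSFA2*, *HSP70* and AT5G51440 and negative ones for *HSP17.4*, while the HSP90-RNAi lines lie on both sides of 0 for each gene.

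In *hsp90.2-3*, the point mutant, *HSP70* was at 467, 586 and 246 and AT5G51440 at 165, 239 and 161. All these samples were above all of Col-0, a separation whose share over the array was not counted. The changes were 1.09 (SE 0.38, unadjusted p = 0.0089, adjusted p = 0.0778) for *HSP70* and 0.97 (SE 0.36, unadjusted p = 0.0133, adjusted p = 0.0997) for AT5G51440, or 2.12-fold and 1.96-fold on the scale with the added 16. *HSP101* was at 10.9, 64.7 and 15.0, on both sides of Col-0, and *HSFA2* at 3.08, 20.7 and 8.53. *HSP17.4* was at 30.5, 50.8 and 46.9, within the range of Col-0. None of the 3 tested members was called and 8.67% of the array was, the largest share among the 9 lines. The *HSP70* difference was called in 2 of 15 alternatives. These were without replicate 3, the lowest sample of the mutant (1.43, adjusted p = 0.0401), and with the replicate number as a block (adjusted p = 0.0344). That block joins *hsp90.2-3* to no other line, since its experiment is not named.

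The mutant also overlaps with the vector controls for AT5G51440, which had 135 to 190 in Control-1 and Control-3, whereas its *HSP70* exceeded their highest value of 250 in 2 of 3 samples. Against HSP90.2-TDNA, the insertion in the same gene, *hsp90.2-3* gave -0.29 (SE 0.38, 95% interval -1.08 to 0.50) for *HSP70*, 0.02 (SE 0.36, 95% interval -0.73 to 0.77) for AT5G51440 and -0.86 (SE 0.51, adjusted p = 0.415) for *HSP101*. The ranges of both lines overlapped for all 5 genes. None of the 3 was called, and 2.95% of the array was.

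Whether the insertion lines differed from the HSP90-RNAi lines in these genes was tested as the difference of the mean changes. It was 0.89 (SE 0.38, 95% interval 0.10 to 1.68, unadjusted p = 0.0289, adjusted p = 0.560) for *HSP70*, 0.93 (SE 0.36, 95% interval 0.18 to 1.68, unadjusted p = 0.0172, adjusted p = 0.495) for AT5G51440 and 0.88 (SE 0.52, adjusted p = 0.689) for *HSP101*. *HSFA2* gave 0.78 (SE 0.44, adjusted p = 0.759) and *HSP17.4* -0.49 (SE 0.32, adjusted p = 0.803). No member was called, with 0.0119% of the array called.

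Ordered by line mean, neighbours mostly overlapped. Of the 12 neighbouring pairs of lines per gene, the samples of all pairs overlapped for *HSFA2* and *HSP17.4*. For *HSP101* only Control-2 and the next line, HSP90.2-TDNA, did not, at 126 to 159 against 18.0 to 122. For *HSP70* Control-1 did not overlap with Control-3, nor RNAi-A2 with Col-0. For AT5G51440 RNAi-A3 did not overlap with RNAi-A1, nor Control-3 with Col-0. The 3 lines of the experiment of Control-2 held the first 3 places for *HSP70*, AT5G51440 and *HSFA2*, and HSP90.2-TDNA the fourth place for each of them.

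The members did not vary as 1 block. Over the 35 samples, the log2 values taken relative to the controls of each experiment correlated at r = 0.76 between *HSP70* and AT5G51440, 0.69 between *HSFA2* and *HSP70*, 0.56 between *HSP101* and *HSP70*, and 0.44 between *HSP101* and *HSFA2*. *HSP17.4* correlated with the other 4 at -0.43 to -0.04. Relative to the mean of each line instead, the values of the first 3 pairs were 0.47, 0.57 and 0.55, and those of *HSP17.4* were -0.23 to 0.30. These are descriptions, since samples share lines, controls and arrays.

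**Figure D3:**
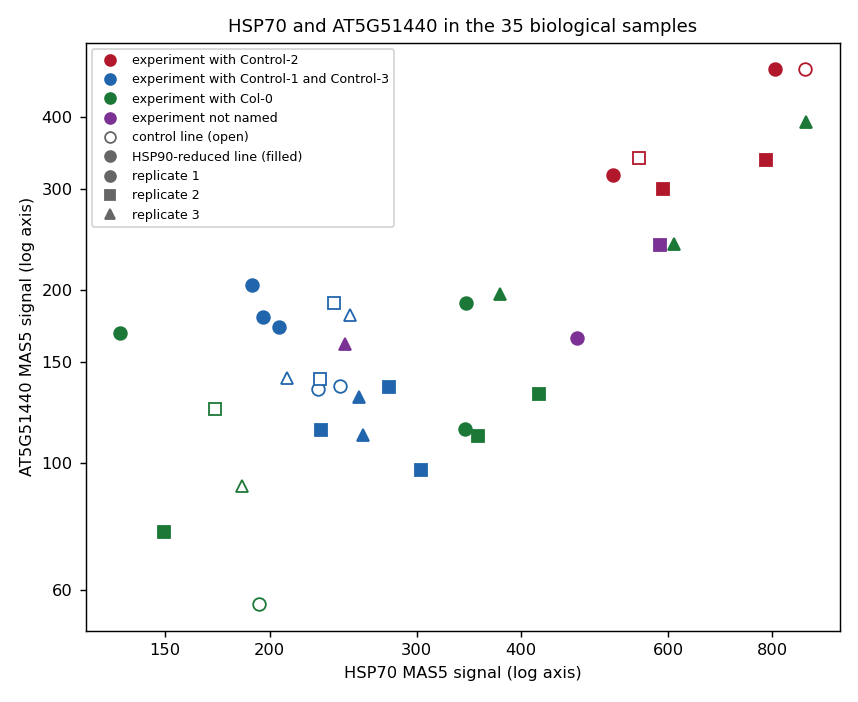
MAS5 signals of *HSP70* (x, log axis) and AT5G51440 (y, log axis) in the 35 biological samples, coloured by experiment, with control lines as open and HSP90-reduced lines as filled symbols shaped by replicate number. The samples grown with Control-2 and replicate 3 of HSP90.2-TDNA form the upper right, control and reduced lines alike. Col-0 lies at the lower left, together with replicate 2 of HSP90.3-TDNA.

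The probe sets most like each member over the 35 samples were sought among 9356 with a single gene name. For *HSP70* they were AT1G13990 (r = 0.83), AT4G01870 (0.81) and AT1G10585 (0.80), and for AT5G51440 they were AT2G41730 (0.76), AT4G22530 (0.75) and AT1G23440 (0.75). *HSFA2* was most like AT2G05540 (0.75), *GSTU25* (0.67), which encodes a glutathione transferase, and AT5G16450 (0.66). For *HSP101* (AT4G13160, AT1G10770 and AT3G56930) and *HSP17.4* (AT2G12050, AT1G72130 and AT1G67060) the best r was 0.63 and 0.61. The 99th percentile of r was 0.46 to 0.60 for the 5 members. None of these 15 probe sets belonged to the heat-response list described next. At most 13 genes of that list could be among the 9356, and the members themselves were left out, so nothing is concluded from this.

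The wider heat response could be read only in part. A list of 67 other genes held chaperones, cochaperones, heat shock factors and some further heat-linked genes. Of these, 15 had a named probe set and 13 were tested, all small heat shock proteins, cytosolic HSP70s or genes listed as cochaperones. No heat shock factor or *HSP90* gene of the list had a named probe set, nor did heat-induced genes such as *HSP21*, *HSP70B* and *MBF1C*. Of these 13, 1 was called higher in RNAi-C1 and 1 in *hsp90.2-3*, none lower in either, and none in either direction in the other 7 lines. Both calls were *HSC70-2* (AT5G02490), a cytosolic HSP70 that is also made without heat. It was at 792 to 805 in RNAi-C1 against 418 to 522 in Control-1 and Control-3 (0.76, SE 0.16, adjusted p = 0.0044), and at 629 to 913 in *hsp90.2-3* against 373 to 644 in Col-0 (0.63, SE 0.18, adjusted p = 0.0335), where the ranges overlapped. These are the 2 lines with the largest shares of the array called, 8.2% and 8.67%.

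The median change of the 13 genes was 0.24 in RNAi-C1, 0.10 in HSP90.2-TDNA and -0.01 in *hsp90.2-3*, beside 0.08, -0.03 and -0.03 for all tested probe sets. In HSP90.2-TDNA 7 of the 13 were positive and 6 negative, and for the mean of the HSP90-TDNA lines 6 were positive and 7 negative, at a median of -0.02. In HSP90.2-TDNA, 3 genes of the list had a positive change with an unadjusted p under 0.05 and 0 had a negative one, beside 7.14% of all tested probe sets in either direction. They were *ROF2*, a heat-induced FKBP-type immunophilin, at 0.55, *HSC70-2* at 0.41 and the small heat shock protein AT1G54050 at 0.30, with adjusted p of 0.658 to 0.676.

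Between Control-2 and the other vector controls, 4 of the 13 genes were called higher and 1 lower, again beside 34.8% of the array. Those higher were *HOP3*, a cochaperone that joins HSP70 to HSP90, at 94.9 to 118 against 18.6 to 48.5 (1.34, SE 0.32, adjusted p = 0.0029), *ROF2* at 297 to 364 against 128 to 175 (1.03, SE 0.24, adjusted p = 0.0026), *HSC70-2* (0.64) and AT1G54050 (0.61). AT5G37670, also a small heat shock protein, was lower (-0.68). These 5 were named after their values were seen, apart from *HSC70-2*.

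**Figure D4:**
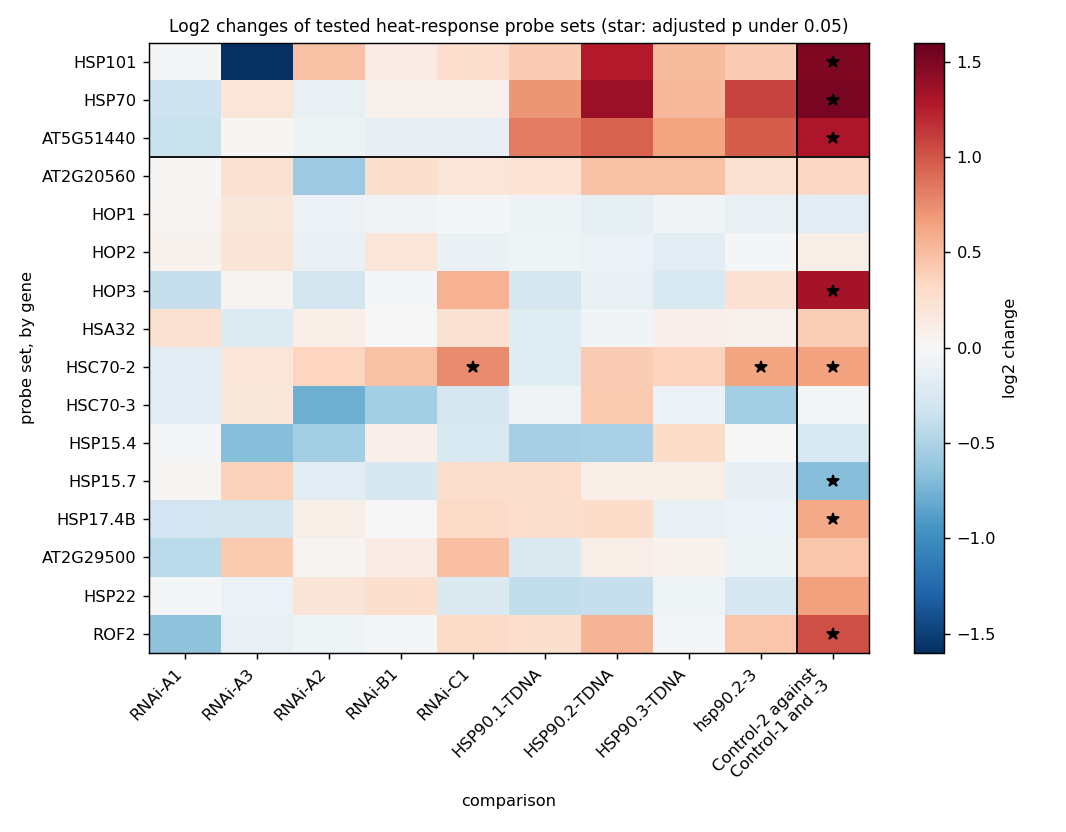
Log2 change (colour) of the 3 tested members, above the horizontal line, and the 13 tested genes of the heat-response list, below it, in the 9 HSP90-reduced lines and, right of the vertical line, in Control-2 against Control-1 and Control-3, with stars at an adjusted p under 0.05. The members have no star in the 9 lines and 3 stars in the comparison of control lines, where 5 genes of the list have one.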

How the data were processed

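RNA was measured on ATH-1 arrays, in 38 arrays of 35 biological samples. The deposited values are intensity on a linear scale; per the labels the authors computed them with MAS5, with no version given in the sources used here, whereas the Methods name PLIER. The trimmed mean of each array was 499.7 to 499.9, as MAS5 scaling leaves it. Differences in total RNA between samples are removed by such scaling, and dim signals are dominated by background.

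The 5 members and the gene lists were chosen with earlier results of these data known. A failed array was left out, and technical replicates were averaged after adding 16 and taking log2. The 64 array controls were removed. A probe set was tested if at least 1 line mean exceeded the 35th percentile of all values (90.34). In R 4.3.3 with limma 3.58.1, 1 mean per line was fitted over all 35 samples (22 residual degrees of freedom, prior 3.23), and two-sided p-values received the Benjamini-Hochberg adjustment across every tested probe set. The number of arrays limits the precision. Each line was compared with the controls of its experiment and *hsp90.2-3* with Col-0. The spread is shared by all lines. The comparisons of Control-2 and of Col-0 with Control-1 and Control-3 were added after the values were seen. Simulated data with known changes were used to check the model.

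Genes named are the 5 members, every gene of the heat-response list called in a line, other genes of that list named after their values were seen and, for likeness, the 3 tested probe sets with a single gene name and the highest Pearson r per member. Locus names are from RefSeq (TAIR10.1). Where a gene had several probe sets, the brightest was used. No sequence was at hand, and none is printed. Alternatives tried were offsets of 4 and 64, quantile normalization, other filters, the replicate number as a block, only the samples compared, all 38 arrays, the methods' t-test (the methods use a two-way ANOVA, not run here, where an experiment has technical replicates), the threshold of the methods on limma's values (unadjusted p under 0.05 and at least 1.5-fold), either control line alone, line means as replicates, and each sample left out.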

Additional observations from a re-analysis of the deposited data

Results flagged for a closer look

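*HSFA2* in replicate 1 of Control-1 had a signal of 29.6, set apart from the other 5 samples of Control-1 and Control-3, which had 4.60 to 11.3. The gap between it and the next sample was 0.733 of the whole range of the 6 samples. About 1 in 20 groups of normally spread values is expected to be set apart in this way by chance, and 5 probe sets were examined. The linear signals of a dim probe set need not be spread normally, so the rate for *HSFA2* is not known. Without it the *HSFA2* change of Control-3 against Control-1 went from -0.16 to 0.21 and that of RNAi-B1 from -0.01 to 0.17.

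On the array of RNAi-A3 that was left out, *HSP101* had a signal of 770 and *HSP17.4* of 785, while the highest Control-2 arrays had 159 and 88.5. The second array of the same RNA sample had 23.3 and 99.7. These values were used in no comparison other than the one with all 38 arrays.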

How the results depend on the processing

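Of the 80 changes (5 members in 16 comparisons), 20 had an unadjusted p under 0.05, and 0 of these changed direction under an alternative. Of the other 60, at least 26 did so, among them *HSP101* in *hsp90.2-3* (0.41, and -0.09 without its replicate 2) and *HSP17.4* there (-0.06, and 0.12 without replicate 3 of Col-0). The counts of members called at an adjusted p under 0.05 kept their value except as follows. In *hsp90.2-3*, 0 were called, but 1, *HSP70*, was called with the replicate number as a block (adjusted p = 0.0344) and when single replicates were left out the count ran from 0 to 1. In Control-2 against Control-1 and Control-3, 3 were called. By the methods' t-test 1 was called after adjustment, *HSP101*, and *HSP70* and AT5G51440 were not. There were 4 without a filter (*HSFA2* entered), 2 with the filter at the 50th percentile and 0 to 3 with single replicates left out. The call of *HSP101* there was also lost with quantile normalization (adjusted p = 0.122), without replicate 2 of Control-2 (0.0987), without replicate 1 of Control-1 (0.0542) and without replicate 1 of Control-3 (0.0549). In Col-0 against Control-1 and Control-3, 0 were called, but 1 with quantile normalization, 1 with the block, 1 by the methods' t-test, 1 by the threshold of the methods on limma's values and 2 with only the samples compared. That threshold, an unadjusted limma p under 0.05 and at least 1.5-fold, called 1 member in RNAi-A3, 3 in HSP90.2-TDNA, 1 in HSP90.1-TDNA, 2 in *hsp90.2-3*, 2 for the mean of the HSP90-TDNA lines and 2 for its difference from the HSP90-RNAi mean, whereas the t-test gave 0 members an unadjusted p under 0.05 in each of the 9 lines. In the same order, an unadjusted limma p under 0.05 alone was reached by 5.53%, 7.14%, 7.41%, 22.2%, 7.97% and 8% of tested probe sets. The share of the array that also passed the fold rule is not given here. The main fit called 8.67% of the array in *hsp90.2-3*, 34.8% in the comparison of Control-2 and 39.1% in that of Col-0 with Control-1 and Control-3. Shares under the alternatives are not given here.

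Same-numbered samples did not pair alike in the 3 experiments, by the correlations between their deviations from the line means. In the experiment of Control-2, 0 of 6 exceeded 0.1 (median -0.08, against 0.08 for differently numbered samples). In that of Control-1 and Control-3, 10 of 26 did (median 0.05 against -0.04). In that of Col-0, 11 of 18 did (median 0.13 against -0.07), so that its samples paired in part. The block changed the calls named above and no other. The methods' t-test was not run for combined comparisons, nor line means as replicates for the difference of kinds of line. Cause was not tested. *HSFA2* and *HSP17.4* were too dim for the filter, and 2 or 3 samples a line limit what could be called.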
